A study of Mus musculus with 10 samples.

Results

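The genes described here are the TGF-beta ligands Tgfb1, Tgfb2 and Tgfb3, the activin subunits Inhba and Inhbb, the latent TGF-beta binding proteins Ltbp1 and Ltbp2, and the secreted CCN proteins Ctgf and Cyr61. They are the 9 genes of a fixed list of symbols, 9 of the 23337 genes in the deposited table, and all 9 were found there and passed the expression filter that left 13084 genes to test. RNA was sequenced from the right atria of 10 mice of mixed strain, 4 labelled control and 6 labelled Tbx5 mutant, 1 library per mouse. The question of the comparison was which genes change in the adult atrium after removal of TBX5, a T-box transcription factor of the atria and conduction system.

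In the mice labelled Tbx5 mutant, the third exon of Tbx5 was the target of CreERt2 expressed from R26, a locus active in most cell types, and tamoxifen was used to start the deletion. The design therefore does not confine the deletion to cardiac muscle, and how far it went in each cell type was not measured here. For the mice of both groups the labels give a daily tamoxifen dose of 0.167 mg, injected on 3 days, and atria taken 1 week later. The labels call the comparison mice only control. The paper used R26-CreERt2 mice as controls for its left atrial libraries. Whether the control mice of these right atrial libraries carried the same recombinase is not given in the sources used here. Ages of 8 to 10 weeks and of 6 to 8 weeks both appear in the labels. Mice are named F1 to F3 and M1 to M3 after their labelled sex and number.

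TGF-beta is secreted in a latent form, bound to its own propeptide and to an LTBP that ties it to the extracellular matrix, and has to be released before it can bind its receptors. The receptors phosphorylate Smad2 and Smad3, which enter the nucleus and switch on genes of matrix, of matrix crosslinking and of the contractile myofibroblast. Activins, dimers of the subunits made by Inhba and Inhbb, signal through the same Smads. Ctgf and Cyr61 encode matricellular proteins that are induced by TGF-beta and also by the YAP and TAZ coactivators acting through TEAD factors, and in the heart TGF-beta signalling is best known for its part in fibrosis.

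The counts per library summed to between 5703775 and 7095141. In mutant M3, 38.9% of the counts fell on the ribosomal RNA precursor Rn45s, against at most 1.49% in the other libraries. Tbx5 itself was at 205 ± 17.8 CPM (counts scaled to a common library size; SD, n = 4) in the control mice and at 394 ± 83.3 CPM (SD, n = 6) in the mutant mice, a log2 fold change of 0.94 (standard error 0.153, adjusted p = 0.000495, edgeR). The level did not fall, but a count over the whole gene does not show whether exon 3 was cut out, so it cannot check the labels. Hence "mutant" below means the mice labelled Tbx5 mutant, and every direction is relative to the labels. Reads of Xist and of the Y-linked Ddx3y went against the labelled sex in all 4 control mice and matched it in the 6 mutant mice.

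Both CCN genes and 1 latent TGF-beta binding protein rose in the mutant right atria, while none of the 5 ligand and activin genes passed the thresholds. Ltbp2 rose 5.02-fold, Cyr61 4.86-fold and Ctgf 2.27-fold. A gene was called when its adjusted p in edgeR's quasi-likelihood test was under 0.05, its fold change was over 1.5 and its mean normalized signal in the control mice was over 1. Thus 3 of the 9 genes were called, all 3 higher and 0 lower, where 15.7% of all tested genes were called, 8.50% higher and 7.16% lower. The groups did not overlap for the same 3 genes, against 22.7% of all tested genes. As RNA came from whole tissue, a change in the number of cells of a type and a change in RNA per cell cannot be told apart.

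**Figure D1:**
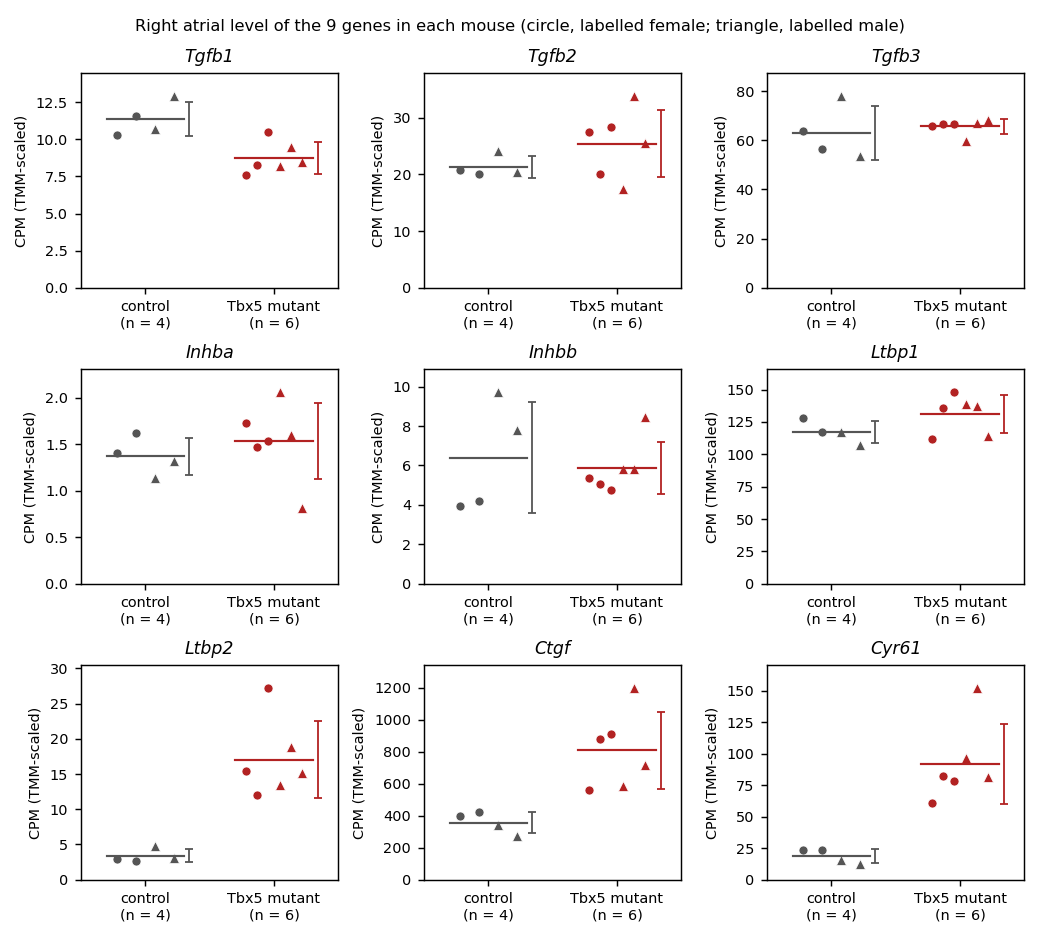
Level of each gene in CPM (vertical axes, starting at 0) in the 4 control (grey) and 6 Tbx5 mutant (red) mice, circles for labelled females and triangles for labelled males, with the group mean as a line and a bar of 1 SD either side. The groups are apart for Ltbp2, Ctgf and Cyr61 and overlap for the other 6 genes.

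**Figure D2:**
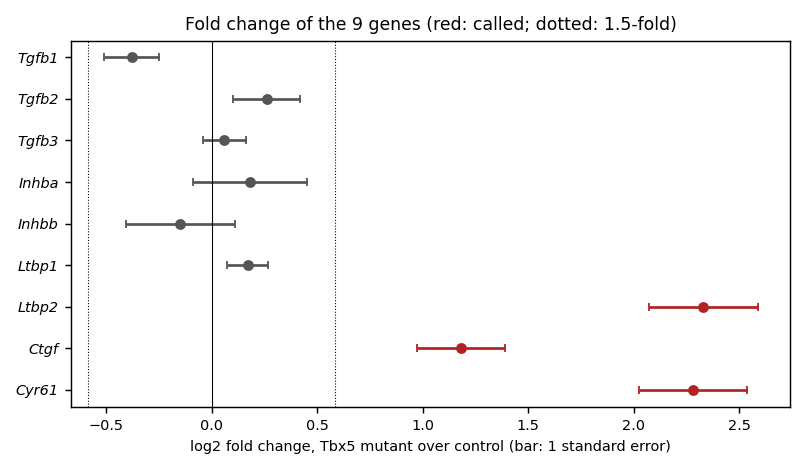
The log2 fold change, Tbx5 mutant over control, of the 9 genes with a bar of 1 standard error either side (n = 4 and 6 mice), and a 1.5-fold change in either direction as dotted lines. Ltbp2, Ctgf and Cyr61, in red, lie between 1.18 and 2.33, and the other genes between -0.38 and 0.26.

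Among the 3 ligands, Tgfb1, the isoform most studied in fibrosis, lies on the forward strand at chr7:25687002-25705077 (GRCm38, GENCODE M21, as all gene positions here). It was at 10.3, 11.6, 10.7 and 12.9 CPM in control F1, F2, M1 and M2 and at 7.57, 8.35 and 10.5 CPM as the lowest, median and highest of the mutant mice. In 5 of 6 mutant mice the level was below that of all 4 control mice, and mutant F3 lay among the controls. Its log2 fold change was -0.38 (standard error 0.13, adjusted p = 0.0400, edgeR; two-sided exact permutation p = 0.019), a 1.3-fold difference that did not reach the fold threshold. With no fold threshold 31.3% of all tested genes passed, Tgfb1 with them. The adjusted p of Tgfb1 was above 0.05 in 10 of 23 alternative fits, 7 of which left out a single mouse: 0.0872 without control F2, 0.062 without control M1, 0.124 without control M2, 0.0735 without mutant F1, 0.0833 without mutant F2, 0.0546 without mutant M1 and 0.0635 without mutant M3.

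Tgfb2, which is needed for the shaping of the valves and septa in the embryonic heart, lies at chr1:186622792-186705989 on the reverse strand. Its level was 20.7, 20.0, 24.1 and 20.4 CPM in control F1, F2, M1 and M2 and had a lowest, median and highest value of 17.5, 26.5 and 33.8 CPM in the mutant mice. Mutant M2 was highest and mutant M1 lowest, and 4 of the 6 mutant mice lay above all control mice. A log2 fold change of 0.26 (standard error 0.16) was not separated from the spread between mice (adjusted p = 0.238, edgeR; two-sided exact permutation p = 0.276).

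Tgfb3, at chr12:86056745-86079041 on the reverse strand, had the highest level per length of the 3 ligands. Control F1, F2, M1 and M2 had 63.8, 56.4, 77.9 and 53.6 CPM, and the mutant mice had 59.7 at the lowest, 66.6 at the median and 68.3 at the highest. All 6 mutant values lay inside the range of the control mice. Its log2 fold change was 0.06 (standard error 0.103, adjusted p = 0.686, edgeR; two-sided exact permutation p = 0.476), and its sign turned, to -0.0038, without control M2. The gene overlaps Ttll5 on the other strand over 5149 bases, and with the strand setting of the counting not stated, reads of both cannot be told apart there; Ttll5 had 1742 counts over the 10 libraries.

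The activin subunits had few reads. Inhba, whose product forms activin A, lies at chr13:16011851-16031621 on the forward strand and had 3 to 12 counts per library. It was at 1.41, 1.62, 1.14 and 1.32 CPM in control F1, F2, M1 and M2, and at 0.817, 1.57 and 2.06 CPM as the lowest, median and highest of the mutant mice. The lowest value, in mutant M3, rested on 3 counts, and the groups overlapped. A log2 fold change of 0.18 with a standard error of 0.271 (adjusted p = 0.645, edgeR; two-sided exact permutation p = 0.638) means that no difference was detectable at this depth. An annotated transcript on the other strand, B230303A05Rik, covers 11573 bases of the gene, so reads of both cannot be told apart there either.

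Inhbb, whose product forms activin B, lies at chr1:119415465-119422248 on the reverse strand. In the control mice it was at 3.92 and 4.20 CPM in F1 and F2 and at 9.72 and 7.78 CPM in M1 and M2. The mutant mice had a lowest value of 4.74, a median of 5.59 and a highest of 8.44 CPM, the last in mutant M3. The control mice fell into a low and a high pair by their labelled sex, which their Xist and Ddx3y reads went against. In the mutant group 5 mice lay between these pairs, and mutant M3 lay within the range of the high pair. With a log2 fold change of -0.15 (standard error 0.258, adjusted p = 0.685, edgeR; two-sided exact permutation p = 0.867) the groups did not separate, and the sign turned, to 0.14, without control M1.

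Of the latent TGF-beta binding proteins, Ltbp1 is the partner that holds latent TGF-beta in the matrix, and lies at chr17:75005568-75392512 on the forward strand. Its level was 128, 117, 117 and 107 CPM in control F1, F2, M1 and M2, and 112, 137 and 148 CPM at the lowest, median and highest of the mutant mice. Mutant mice F2, F3, M1 and M2 lay above all control mice, and F1 and M3 lay among them. The log2 fold change was 0.17 (standard error 0.0973, adjusted p = 0.213, edgeR; two-sided exact permutation p = 0.105). It became 0.35 with an adjusted p of 0.0184 (edgeR) once each library's trend on transcript length was removed, and 0.33 with an adjusted p of 0.0792 (edgeR) when a replicate block was fitted as well. The block joins different animals by number, and mutant F3 and M3, with no control of their number, add nothing to the difference in that fit. Across genes, log2 fold changes and transcript lengths had a Spearman correlation of -0.316.

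Ltbp2, at chr12:84783212-84876532 on the reverse strand, is a matrix protein of elastic microfibrils that, unlike Ltbp1, does not bind latent TGF-beta. It was at 2.98, 2.71, 4.72 and 3.14 CPM in control F1, F2, M1 and M2, which is 19 to 33 counts, and at 12.0, 15.4 and 27.2 CPM as the lowest, median and highest of the mutant mice, 56 to 195 counts. Every mutant mouse lay above every control mouse, with mutant F3 highest. Ltbp2 rose by a log2 fold change of 2.33 (standard error 0.257, adjusted p = 2.47e-05, edgeR; two-sided exact permutation p = 0.00952, the smallest that 4 mice against 6 allow). Across all 23 alternative fits it was called, with log2 fold changes from 2.10 to 2.55.

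Ctgf, also named Ccn2, lies at chr10:24595442-24598683 on the forward strand, and its product is a matricellular protein raised in most fibrotic tissue. Control F1, F2, M1 and M2 had 396, 421, 341 and 271 CPM. The mutant mice had 559 CPM at the lowest, 800 at the median and 1199 at the highest. The lowest mutant mouse, F1, was above the highest control mouse, and mutant M2 was highest. Ctgf rose by a log2 fold change of 1.18 (standard error 0.208, adjusted p = 0.000876, edgeR; two-sided exact permutation p = 0.00952). Without mutant M2 it was 1.04, still called. Over 1667 bases Ctgf is overlapped on the other strand by Gm15270, a transcript that is not analysed here, and reads of both cannot be told apart over these bases.

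Cyr61, also named Ccn1, lies at chr3:145646976-145649981 on the reverse strand and encodes a matricellular protein that binds integrins. Its level was 23.8, 23.7, 15.7 and 12.2 CPM in control F1, F2, M1 and M2. In the mutant mice the lowest, median and highest values were 61.2, 81.9 and 152 CPM. The groups were apart, with mutant F1 the lowest and M2 the highest of the mutant mice, as for Ctgf. Cyr61 rose by a log2 fold change of 2.28 (standard error 0.255, adjusted p = 2.74e-05, edgeR; two-sided exact permutation p = 0.00952), and by 2.08 without mutant M2.

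To show the sequence before the starts of genes that rose and of one ligand that was not called, the 250 bases upstream of the RefSeq start (GRCm38.p6) are given 5′ to 3′ on the strand of the gene, for Cyr61 (chr3:145649986-145650235, reverse strand), Ltbp2 (chr12:84876492-84876741, reverse strand) and Tgfb2 (chr1:186705990-186706239, reverse strand). Capitals mark the letters searched for: the TEAD motif GGAATG, which reads CATTCC on the other strand, in Cyr61, the Smad motif CAGAC or GTCTG in Ltbp2 and Tgfb2, and the T-box motif GGTGTG, here as CACACC, in Tgfb2.
Cyr61: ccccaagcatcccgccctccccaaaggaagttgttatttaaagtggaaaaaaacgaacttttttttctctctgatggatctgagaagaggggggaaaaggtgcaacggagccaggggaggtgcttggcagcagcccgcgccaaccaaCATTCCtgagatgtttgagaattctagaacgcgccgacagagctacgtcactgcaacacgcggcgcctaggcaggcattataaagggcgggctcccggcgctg
Ltbp2: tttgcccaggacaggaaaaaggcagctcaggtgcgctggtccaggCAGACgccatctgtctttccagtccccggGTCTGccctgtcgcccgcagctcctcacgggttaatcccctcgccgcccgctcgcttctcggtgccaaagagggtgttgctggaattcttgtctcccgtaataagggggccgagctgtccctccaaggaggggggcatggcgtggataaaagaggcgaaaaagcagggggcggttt
Tgfb2: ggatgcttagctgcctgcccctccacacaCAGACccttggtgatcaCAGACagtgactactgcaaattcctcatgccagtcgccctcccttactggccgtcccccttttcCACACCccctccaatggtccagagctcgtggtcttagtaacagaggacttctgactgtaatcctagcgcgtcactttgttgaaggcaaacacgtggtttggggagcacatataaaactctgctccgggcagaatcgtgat

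In Cyr61 the TEAD letters began 103 bases before the start. In Ltbp2 the Smad letters began 205 and 176 bases before it, and in Tgfb2 they began 221 and 204 bases before it, with the T-box letters at 140 bases. Windows of 300 bases, which reach 50 bases past the start, were matched by symbol for 7 of the 9 genes, all but Ctgf and Tgfb3. On either strand, Smad letters were found for 4 of the 7, Tgfb2, Ltbp1, Ltbp2 and Cyr61 (in Cyr61 after the start), and in 49.6% of all 32851 windows. The TEAD letters were found for Cyr61 and in 14.7% of windows, and the T-box letters for Tgfb2 and in 19.0%. The AP-1 letters TGANTCA, in 7.81% of windows, and the CArG box, in 1.63%, were found for 0 of the 7 genes. No 2 of these motifs overlapped in the printed sequences, and a match of so few letters does not show that a factor binds there.

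Compared per length, as CPM per kb of the longest transcript, the 9 genes spanned a wide range of levels. In the control mice Ctgf was highest at 144 ± 26.8 (SD, n = 4), then Tgfb3 at 18.6 ± 3.21, Ltbp1 at 17.5 ± 1.29, Cyr61 at 9.35 ± 2.88, Tgfb1 at 4.43 ± 0.443, Tgfb2 at 4.16 ± 0.374, Inhbb at 1.5 ± 0.663, Ltbp2 at 0.5 ± 0.134 and Inhba at 0.215 ± 0.0313. The ranges of neighbours in this order overlapped for Tgfb3 and Ltbp1 and for Tgfb1 and Tgfb2. The level of Ctgf was thus above that of each ligand in every control mouse. In the mutant mice Ctgf stood at 325 ± 96.2 (SD, n = 6) and Cyr61 at 45.5 ± 15.6, both above Ltbp1 at 19.7 ± 2.18 and Tgfb3 at 19.4 ± 0.907. Below them came Tgfb2 at 4.98 ± 1.15, Tgfb1 at 3.4 ± 0.404, Ltbp2 at 2.52 ± 0.807, Inhbb at 1.38 ± 0.312 and Inhba at 0.24 ± 0.064. Cyr61 had moved past Ltbp1 and Tgfb3 and Ltbp2 past Inhbb, although the ranges of Ltbp2 and Inhbb, of Ltbp2 and Tgfb1, of Tgfb1 and Tgfb2 and of Ltbp1 and Tgfb3 overlapped in the mutant mice.

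**Figure D3:**
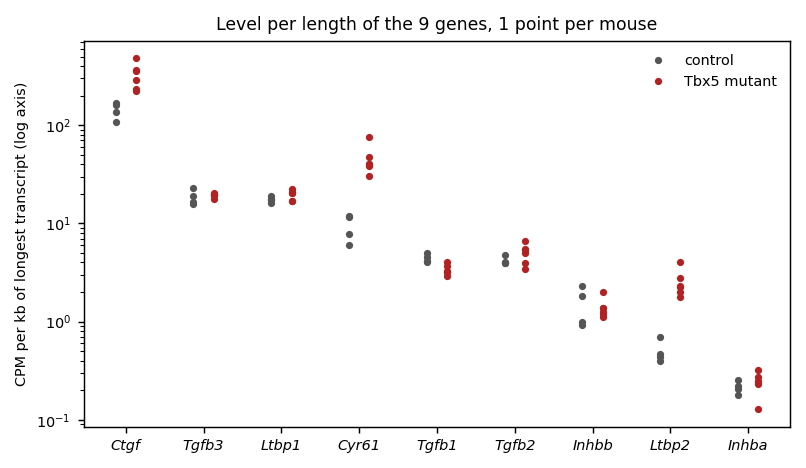
Level of the 9 genes per length, in CPM per kb of the longest transcript on a log axis, 1 point per mouse, control in grey and Tbx5 mutant in red, ordered by the mean of the control mice. Ctgf is highest in both groups, and Cyr61 lies below Tgfb3 and Ltbp1 in the control mice and above them in the mutant mice.

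How the genes varied from mouse to mouse within the groups was measured by correlating log2 CPM over the 10 mice with the group means removed, over all 36 pairs of the 9 genes. For Ctgf and Cyr61 Pearson's r was 0.77 (within-group permutation p = 0.015, adjusted p = 0.271) and Spearman's rho was 0.62 (permutation p = 0.0587, adjusted p = 0.704). Without mutant F1 and M2, the mice farthest from the median of Ctgf, r was 0.48, so the size of the correlation rests in part on them. For Tgfb2 and Ltbp2 r was 0.68 (permutation p = 0.0441, adjusted p = 0.33) and rho 0.85 (permutation p = 0.0037, adjusted p = 0.133), and r was 0.82 without mutant M1 and M2. None of the 36 pairs passed an adjusted p of 0.05, and Ltbp2 had an r of 0.24 with Ctgf and of -0.09 with Cyr61.

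**Figure D4:**
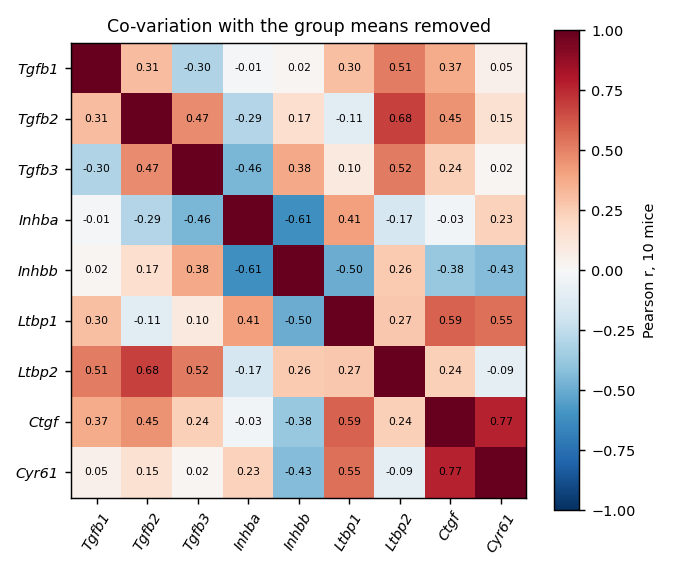
Pearson correlation of log2 CPM between each pair of the 9 genes over 10 mice, with the mean of each group removed, from blue (-1) to red (1). The pair of Ctgf and Cyr61 has the highest value, 0.77, and no pair passed the adjusted threshold.

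The genes whose values deviated most like those of the 3 called genes over the same 10 mice, are given as a description. For Ltbp2 they were Leprel2 (r = 0.914), Mt2 (0.860) and Chst2 (0.850), for Ctgf they included Epb4.1l1 (0.934) and Tmbim1 (0.934), and for Cyr61 they were C7 (0.930), A230051G13Rik (0.930) and Ube2ql1 (0.929). Of these 8 genes, C7 was called lower and Mt2 and A230051G13Rik were called higher, and the others were not called. They stood at the top of 13084 genes ranked over only 10 mice.

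Whether the genotype difference depended on labelled sex was tested after the values had been seen, by an interaction term in edgeR. With the labels as given, 0 of the 9 genes passed an adjusted p of 0.05, as did 0.290% of all tested genes, and 2 of the 9 had an unadjusted p under 0.05. These were Cyr61, with an interaction of 1.34 on the log2 scale (male minus female, unadjusted p = 0.00227, adjusted p = 0.155, edgeR), and Inhbb, with -0.73 (unadjusted p = 0.0481, adjusted p = 0.476, edgeR). With the sex labels of the control mice exchanged, as their Xist and Ddx3y reads run, 0 of the 9 passed, beside 0.00764% of all tested genes. Of the 9, 1 had an unadjusted p under 0.05. This was Inhbb, with an interaction of 1.48 (unadjusted p = 0.000802, adjusted p = 0.224, edgeR), while that of Cyr61 was -0.17 (adjusted p = 0.944, edgeR). The sign of both terms turned with the labels used for the control mice.

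The rest of the pathway was followed through lists of 157 genes in the table, of which 139 were tested, 41 were called higher and 7 lower, where 8.50% of all tested genes were called higher and 7.16% lower. A list with a share near these, such as the Smads or the YAP and TEAD factors, gives no result about the list itself. Of 11 receptors and co-receptors 2 rose, the decoy receptor Bambi (log2 fold change 1.07) and the co-receptor Cd109 (1.01), both of which dampen TGF-beta signalling, and 1 fell, the activin receptor Acvr2b (-0.72). Acvr2b was no longer called, with adjusted p (edgeR) of 0.0574 to 0.137, without any one of control F1, M1 and M2 and mutant F1, F2, F3 and M2. Its call was also lost in fits that kept all mice. Among these were the DESeq2 Wald test (adjusted p = 0.0748) and limma with a trend (adjusted p = 0.0652). The call was lost as well with a replicate block in edgeR (adjusted p = 0.0904). In that fit mutant F3 and M3, with no control of their number, add nothing to the difference between groups. Of 18 Smads and their regulators 0 rose and 1 fell, the ubiquitin ligase Nedd4l (-0.77), which was at -0.55, under the fold threshold, with the length trend removed. The median log2 fold change was 0.073 for the receptors and -0.072 for the Smads, beside -0.00495 for all tested genes.

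Among genes that hold or release latent TGF-beta, 6 of 22 rose and 1 fell, with a median of 0.37. Thbs1, a thrombospondin that activates latent TGF-beta, went from 24.7 ± 10.8 to 93.2 ± 55.7 CPM (log2 fold change 1.92, adjusted p = 0.00243, edgeR), with overlapping groups. Fbn1, the fibrillin to which LTBPs attach, had a log2 fold change of 1.55, and Adamtsl2, which binds fibrillin and LTBP1, one of 1.30. Mmp9, a matrix protease that can release TGF-beta, fell by 1.62 on the log2 scale, with an adjusted p of 0.0168 (edgeR) that was 0.052 without control F2 and 0.0712 without control M2. Of 11 extracellular antagonists 2 rose, Aspn (1.81), which binds TGF-beta, and Fstl3 (1.08), which binds activins, and 2 fell, Inha (-0.85), the alpha subunit of inhibin, and Fmod (-0.63), a collagen-binding proteoglycan. The call of Inha was lost without control M1 (adjusted p = 0.0523, edgeR), and that of Fmod without control F2 (0.0736) or, through the fold threshold, without mutant F1 or F3 (log2 fold changes -0.52 and -0.58). Only 2 of 10 other activin-like and GDF ligands had enough reads to test, and neither was called.

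The genes that TGF-beta is known to induce in matrix and myofibroblasts had the highest median of the 10 lists. Of 24 tested, 19 rose and 0 fell, where 8.50% of all tested genes were called higher and 7.16% lower. The median log2 fold change was 1.39, and 19 were also called with mutant M2 left out and with mutant M3 left out. As the lists were chosen with earlier results of these data known, their ranking and these counts are a description and no test. Over the 23 alternative fits 17 to 20 of the list were called higher and 0 lower. Tnc, a matricellular protein of injured tissue, went from 2.8 ± 1.34 to 62.7 ± 33.4 CPM (log2 fold change 4.50, adjusted p = 7.23e-06, edgeR). Eln, which encodes elastin, had a log2 fold change of 2.36. The 19 ranged from 1.05 to 4.50, and the 5 tested but not called, named after their values were seen, were Tgfbi, Comp, Nox4, Cilp and Fap, while Il11 had too few reads to test.

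The relatives of Ctgf and Cyr61 and the other targets of the YAP pathway were counted beside all tested genes. Of all tested genes 15.7% were called, 8.50% higher and 7.16% lower. Of the 3 other CCN genes tested, Wisp2 rose from 15.8 ± 8.36 to 52.7 ± 10.4 CPM (log2 fold change 1.74, adjusted p = 0.000353, edgeR), and Wisp1 fell from 55.7 ± 7.43 to 22.9 ± 4.95 CPM (log2 fold change -1.29, adjusted p = 1.78e-05, edgeR). Of 18 further targets of YAP and TEAD 3 rose, the stretch-responsive Ankrd1 (1.77), the ecto-nucleotidase Nt5e (0.70) and the angiomotin Amotl2 (0.59), and 0 fell, with a median of 0.12. Counted in either direction, this share is near that of all tested genes and gives no result about the list itself. Amotl2 was just past the fold threshold and fell under it, at 0.49 to 0.58, without any one of control M1 and M2 and mutant F2, M1 and M3. Of 13 YAP and TEAD factors and their regulators 1 rose, Vgll3 (0.78), and 1 fell, Tead1 (-0.75), which was not called with the length trend removed (-0.45, adjusted p = 0.129, edgeR). Of 17 immediate early genes, a class to which Cyr61 is often counted, 7 rose and 0 fell, with a median of 0.42, led by Atf3 (3.25), Egr2 (1.29) and Ier3 (1.21).

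**Figure D5:**
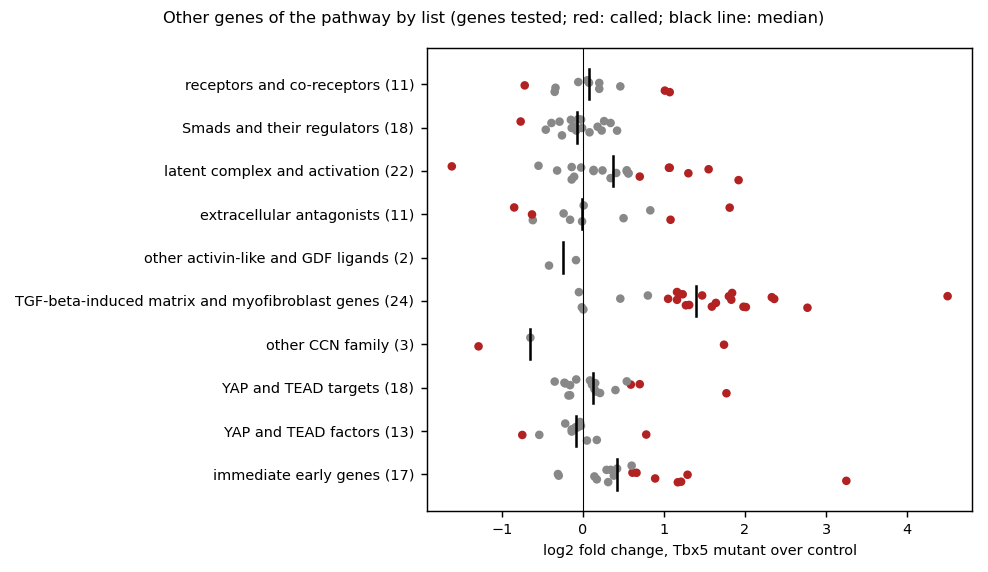
The log2 fold change, Tbx5 mutant over control, of each tested gene in 10 lists of the pathway, called genes in red, others in grey and the median of each list as a black line. The matrix and myofibroblast list lies furthest to the right, with a median of 1.39, and the receptors and Smads lie around 0.

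Markers of other cell types were counted the same way, beside 15.7% of all tested genes called. Their part in the results above was not tested. A list with a share near this, such as the smooth muscle or the endothelial list, gives no result about the list itself. All 6 tested of 8 macrophage and leukocyte markers rose, with a summed level of 280 to 392 CPM in the control and 465 to 672 CPM in the mutant mice. All 4 markers of cycling cells rose, from a sum of 10.6 to 25 CPM to one of 67.3 to 234 CPM. Of 7 fibroblast markers, Col1a1 rose and Gsn fell, with a median log2 fold change of 0.31. The 7 summed to 7592 to 9286 CPM in the control and 5207 to 7816 CPM in the mutant mice. Gsn alone, the largest part of this sum, went from 5675 ± 677 to 3344 ± 789 CPM. Col1a1 here and Acta2 below are also in the matrix and myofibroblast list above. Of 7 smooth muscle and pericyte markers Acta2 rose (297 to 355 against 365 to 769 CPM in sum), and of 7 endothelial markers Vwf did (2367 to 3672 against 3123 to 4280 CPM).

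All 7 cardiomyocyte markers were present, summing to 68200 to 81536 CPM in the control and 57562 to 71139 CPM in the mutant mice. Actc1 and Tnnt2 rose and the atrial genes Nppa, Sln and Myl7 fell. Of 3 ventricular markers Myl2 and Myl3 rose (35 to 57.7 against 603 to 844 CPM in sum). None of the 6 epicardial markers (378 to 389 against 228 to 453 CPM) or the 4 tested of 5 platelet markers (28.7 to 76.3 against 28.5 to 140 CPM) was called, and the 4 adipocyte markers were too low to test. Of 5 red blood cell markers Alas2 was called higher, and the 4 globin genes were at 0 counts in all 10 libraries. The labels describe a globin removal step, and whether it gave these zeros was not tested. Among the 10 fits that each left out 1 mouse, the marker calls lost were those of Nppa in 8, Alas2 in 5, Csf1r in 4, Ccnb1 in 2 and Vwf in 1.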

How the data were processed

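The authors deposited 1 table with raw read counts per gene and library, a normalized signal per gene and library (each count over a size factor of its library) and columns of their own group comparison (fold changes, p-values), which were not used. The submitters' processing notes name FastQC, TopHat2 2.0.11, featureCounts, DESeq2 and mm10; the roles and the strand setting are not given in the sources used here, and the labels describe both an mRNA kit and total RNA. Libraries held 5703775 to 7095141 counts; a gene under 3 counts, counting error only, cannot be told from 0.

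Counts of all 10 libraries were fitted with edgeR 4.0.16 (R 4.3.3; TMM scaling, its expression filter, quasi-likelihood test, no covariates, Benjamini-Hochberg over 13084 genes). Standard errors were taken by dividing log2 fold changes by the root of the F statistic. CPM are TMM-scaled, on the log2 scale with a prior count of 1. Single genes were also tested by exact permutation over 210 splits, and co-variation by 100000 permutations within groups. The fit was tested on simulated data. P-values of group differences weigh the difference against the spread between these mice. Those of co-variation come from shuffling values within groups. Gene positions and lengths came from GENCODE M21 and promoters from RefSeq.

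The genes, lists and tests were chosen with earlier results of these data known. Named are Tbx5, the 9 genes, in each pathway list all called genes if 6 or fewer and otherwise the 3 largest rises and 3 largest falls, called markers where 3 or fewer (the cardiomyocyte genes were named after their values were seen), and the 3 genes most like each called gene; 2 genes that this rule takes in are not reported here. Replicate pairs within a group differed by a chi-square of at least 3.78 per degree of freedom. Pairs with mutant M3, the library rich in Rn45s, differed most, by 226 to 247, and the other pairs by at most 33.4. Alternatives were other scalings and filters, DESeq2 1.42.0, limma 3.58.1 with a trend, another prior count, covariates, a replicate block, removal of the length trend, other thresholds and each mouse left out.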

Additional observations from a re-analysis of the deposited data

Results flagged for a closer look

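In 40 groups of values, 1 mouse was set apart from its group in 4 cases, and chance gives about 1 in 20. Tgfb2 was at 24.1 CPM in control M1, against 20.0 to 20.7 CPM in the other control mice. Tgfb3 was at 59.7 CPM in mutant M1, against 65.6 to 68.3 CPM in the other mutant mice. Inhbb was at 8.44 CPM in mutant M3, the library rich in Rn45s, against 4.74 to 5.83 CPM in the others. The summed level of the 4 adipocyte markers was 20.8 CPM in mutant M2, the mouse with the highest Ctgf and Cyr61, against 0 to 2.51 CPM in the other mutant mice. None of the 3 genes named was called, and no cause was tested.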

How the results depend on the processing

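Of the 9 genes, 3 were called under every alternative but one: with no fold change threshold 4 were, since 1 gene, Tgfb1, then counted as lower. Ltbp2, Ctgf and Cyr61 were called in all 23 fits, with log2 fold changes of 2.10 to 2.55, 1.04 to 1.28 and 2.08 to 2.42. All genes called numbered 1284 with a mean count of at least 50 (fewer genes tested), 4096 with no fold change threshold and 906 with a fold change over 2. In the 10 fits that each left out 1 mouse, the genes of the list called stayed at 3 (higher 3, lower 0), the pathway genes called ran from 46 to 50 and all genes called from 1807 to 2205. In these fits Tgfb3 ran from -0.0038 (without control M2) to 0.19 and Inhbb from -0.32 to 0.14 (without control M1); the cause was not tested. Beside those without a single mouse, Tgfb1 had an adjusted p above 0.05 with upper-quartile scaling (0.0585), with no filter (0.0663) and with the DESeq2 Wald test (0.0673), over a range of 0.0157 to 0.124.

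Same-numbered mice are different animals and did not deviate together (mean r = -0.00713 over 4 pairs, 0.00133 over the 20 others; 0 of 4 control mice correlated best with their own number). With the replicate block, 3 of the 9 genes, 46 pathway genes and 1957 of all genes were called, and with the replicate block and the length trend removed 3, 47 and 1733. In both fits mutant F3 and M3, with no control of their number, added nothing to the difference between groups. The sex covariate with the control labels exchanged was chosen after seeing the data. Depth limits Inhba, with 3 to 12 counts per library, most.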
